A study of Mus musculus with 9 samples.

Results

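Receptors, ligands and repressors of the Notch pathway were followed in MyC-CaP cells together with the Groucho corepressors that the pathway's repressors recruit. The set holds 10 of the 15552 genes in the count table, and comprises the receptors Notch1, Notch2 and Notch3, the ligands Jag1 and Jag2, the repressors Hes1 and Hes6, and the corepressors Tle1, Tle2 and Tle3. These genes were chosen by name from families of the pathway, with their differences between the time points already known. In particular, the lower level of Tle2 at 12 h beside its paralogs was part of the choice. Their values in the 3 comparisons are therefore given as a description, with fold changes, standard errors and the calls of the fit but without p-values. Enough counts for the test were found for 9 of the 10, all except Hes1.

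MyC-CaP is a cell line derived from a MYC-driven mouse prostate tumor, so each library is the same line and not a different animal. Cells of every group were starved for 6 to 12 h in a medium with neither serum nor calcium, and the treatment was recombinant NRG1 at 15 ng/mL, a ligand of the receptor HER3. The 9 libraries comprise 3 biological replicates each at 0, 12 and 24 h of treatment. The 0 h group was taken as the start of treatment, since the sources used here do not state when its cells were harvested. No libraries labelled as untreated at 12 or 24 h were analysed here, so time in the medium and time with NRG1 cannot be told apart. The 12 h and 24 h libraries are both set against the same 3 libraries at 0 h, and their differences from 0 h share those values.

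Notch receptors are cell surface proteins that are cut when a Delta or Jagged ligand on a neighboring cell pulls on them. First an ADAM protease and then gamma-secretase cleave the receptor, and the freed intracellular domain binds the DNA-binding protein RBPJ and the coactivators of the MAML family to switch on targets such as Hes1. HES proteins are repressors that end in a short peptide bound by Groucho proteins, the TLE family, which carry no DNA-binding domain and silence genes at the sites where HES, RUNX, TCF and other factors place them. In the prostate, Notch signaling takes part in the growth and differentiation of the epithelium. Both the folding of the Notch receptors and the binding of their ligands depend on calcium. Since every library shared the calcium-free medium, its effect was not measured.

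The libraries held 28467089 to 37873433 counts at 0 h, 30920755 to 36177889 at 12 h and 30299344 to 39239760 at 24 h. A count of 3 corresponded to 0.0764 to 0.106 CPM, the counts scaled to library size, the level below which a gene was taken as not detectable. Among the libraries of 1 time point, 12 h replicate 3 stood apart. Its chi-square per degree of freedom was 10.2 and 10.3 against the other 12 h libraries, and the other 7 pairs had 3.40 to 7.63. The highest of these were 6.75 and 7.63, between 0 h replicate 1 and the other 0 h libraries. Of the luminal epithelial markers listed, Hoxb13 and Krt8 were at 84.3 and 18.2 CPM at 0 h. Krt18, the keratin that pairs with Krt8, was at only 0.253 CPM with 6 to 13 counts. Epcam had no count at 0 and 12 h and at most 3 at 24 h, and Cdh1 had at most 4 counts, so both of these epithelial adhesion markers were near 0 in every library. Summed marker levels of other cell types did not exceed 0.421 CPM for basal epithelium, 1.11 CPM for immune cells and 0.560 CPM for endothelium, and the fibroblast list ranged from 15.3 to 18.0 CPM, nearly all of it Pdgfra.

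Bases just before a RefSeq start site are shown for Notch1 and Notch2, the receptors of the set that were lower at 12 h. The pathway's own repressors bind sites of known letters. The sequences are RefSeq's for GRCm38.p6 on the strand of the gene, 5′ to 3′, restricted to bases outside annotated exons. Capitals mark matches to the sites of HES proteins on either strand, namely the N-box CACNAG and the class C site CACGCG. The first interval is chr2:26503825-26504072, on the minus strand within the span of Notch1, upstream of a shorter annotated transcript. The bases before the outermost end of Notch1, at 26516663, were not examined. The other is chr3:98013288-98013526, on the plus strand directly upstream of Notch2.
Notch1: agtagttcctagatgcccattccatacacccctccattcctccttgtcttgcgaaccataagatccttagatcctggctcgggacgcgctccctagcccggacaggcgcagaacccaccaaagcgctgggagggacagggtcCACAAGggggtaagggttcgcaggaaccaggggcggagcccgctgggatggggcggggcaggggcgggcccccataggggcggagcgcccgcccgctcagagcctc
Notch2: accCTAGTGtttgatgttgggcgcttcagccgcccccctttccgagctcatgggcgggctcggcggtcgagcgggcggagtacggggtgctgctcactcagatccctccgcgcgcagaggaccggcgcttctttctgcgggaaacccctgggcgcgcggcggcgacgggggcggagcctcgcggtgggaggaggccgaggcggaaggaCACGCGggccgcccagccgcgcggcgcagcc
The Notch1 window held 1 N-box and the Notch2 window held 1 N-box and 1 class C site. The window of Notch3, which did not pass at 12 h, held 2 N-boxes. The windows of Tle2 and Jag2 lie inside the spans of these genes, with 250 of 250 bases in annotated exons, 1 of the Hes6 windows, the one with its N-box, is also internal, and parts of the windows of Jag1 and Tle1 are, since RefSeq's start is not always the outermost one. A window of 250 bases was available for 9 of the 10 genes, Hes1 excepted, with 10 windows in all because Hes6 has more than 1. The RBPJ motif GTGGGAA was in 0 of the 10 windows and in 5.42% of 32851 mouse windows of that length. An N-box was found for 6 genes, Notch1, Notch2, Notch3, Hes6, Tle2 and Tle3, and in 36.7% of all windows. A class C site was found for 3, Notch2, Jag1 and Tle1 (7.62% of all windows), and the E-box CACGTG for Tle3 alone (6.02%). The N-box and class C site share their first letters but cannot be the same match. These matches describe letters and not bound sites, and a window without a match says nothing of the factor.

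Levels can be compared between genes only per length, as CPM per kilobase of exon. On that scale at 0 h, Notch2 led the set at 17.3, above 74.5% of the genes tested, followed by Tle1 at 14.6. Hes6 at 6.93 and Tle3 at 6.80 came next, and their ranges over the libraries overlapped. Jag1 was at 2.47, Notch3 at 0.784, Tle2 at 0.441, Jag2 at 0.259, Notch1 at 0.157 and Hes1 at 0.128, where the ranges of Notch1 and Hes1 overlapped and those of the other neighbours did not. The set thus ran from genes in the upper part of the distribution to genes near its floor, with Notch1 above 4.32% of the tested genes and Hes1 above 3.49%.

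**Figure D1:**
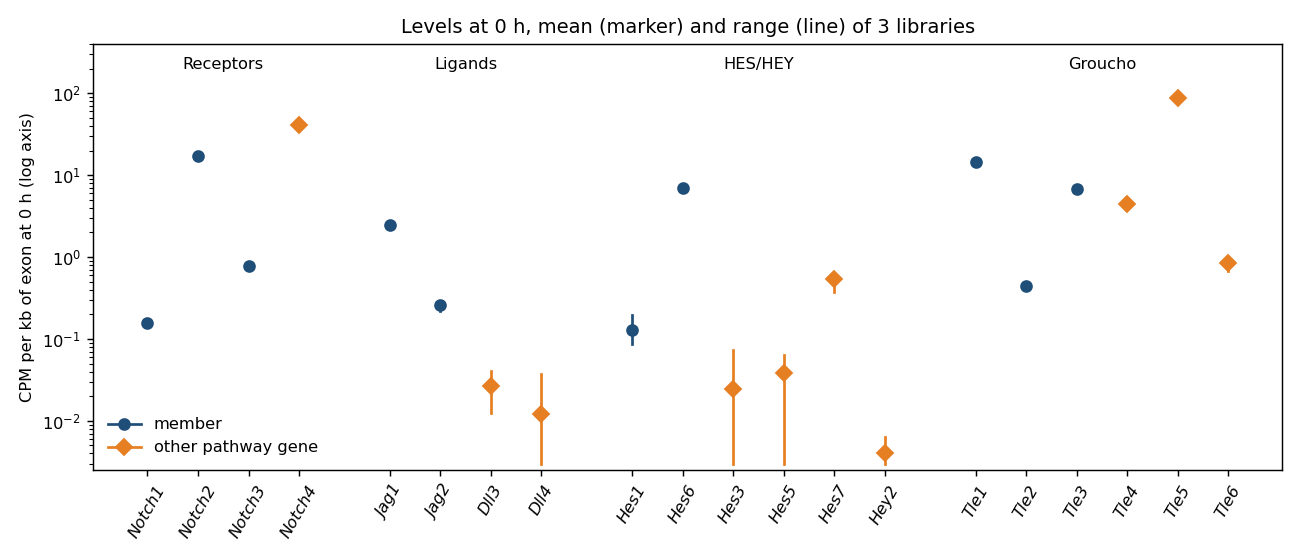
Level of each gene at 0 h in CPM per kilobase of exon on a log axis, grouped by role, with members of the set and other genes of the same roles marked apart. Points are means of 3 libraries and lines span the lowest to the highest library, and a line that reaches the lower edge includes a library without a count. Notch4 (40.5) and Notch2 (17.3) lead the receptors, Tle5 (86.5) and Tle1 (14.6) the Groucho family, and Notch1 (0.157) and Hes1 (0.128) sit at the lower end of the set.

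Outside the set, the receptor Notch4 was higher than Notch2 per length, at 40.5 CPM per kilobase, and Tle5, a short Groucho relative, was at 86.5. Among the ligands, Dll3 and Dll4 had at most 4 counts in any library, reaching the 3-count floor in some libraries at 0 h and in none at 12 or 24 h, and Dll1 was not in the table. Of the other HES and HEY repressors, Hes7 was at 0.534 CPM per kilobase, Hes3, Hes5 and Hey2 had at most 4 counts, and Hes2, Hey1 and Heyl were not in the table.

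The test across all genes was edgeR's quasi-likelihood test, in which a gene passed at a Benjamini-Hochberg adjusted p of at most 0.05 and was called when its change was also at least 1.5-fold. Over the set as a whole, 4 of the 9 tested genes passed at 12 h against 0 h, all lower (Notch1, Notch2, Jag2 and Tle2), and 3 of these were called, Notch2 not. Among all 11373 genes tested, 25.5% passed in that comparison, 13.6% as higher and 11.9% as lower, and 2.29% were called, 1.34% as higher and 0.958% as lower. The 12 h libraries all lay below the 0 h libraries for the same 3 called genes and above them for 0, beside 18.5% and 19.9% of all tested genes. At 24 h against 0 h, 0 of the 9 genes passed and 0 were called, beside 17.4% of all genes passing, 9.67% as higher and 7.76% as lower, and 2.27% called, 1.68% as higher and 0.589% as lower. The log2 differences of the set lay between -0.51 and -0.041 there, and Hes6, Tle1 and Tle2 had every 24 h library below every 0 h library, as had 17.9% of all genes, while 17.6% had every one above. At 24 h against 12 h, Tle2 was the 1 gene of the set that passed and was called, and it was higher. In that comparison 5.03% of all genes passed, 1.97% as higher and 3.06% as lower, and 0.290% were called, 0.202% as higher and 0.0879% as lower. Among the tested genes of the set, every 24 h library was above every 12 h library for Tle2 (11.4% of all genes) and below for Tle1 (13.6%). The median log2 difference of the 9 genes was -0.15, -0.079 and 0.071 in the 3 comparisons, beside -0.0028, -0.0065 and 0.0023 for all genes tested. Since these comparisons were known when the set was chosen, nothing is read from the counts or medians.

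**Figure D2:**
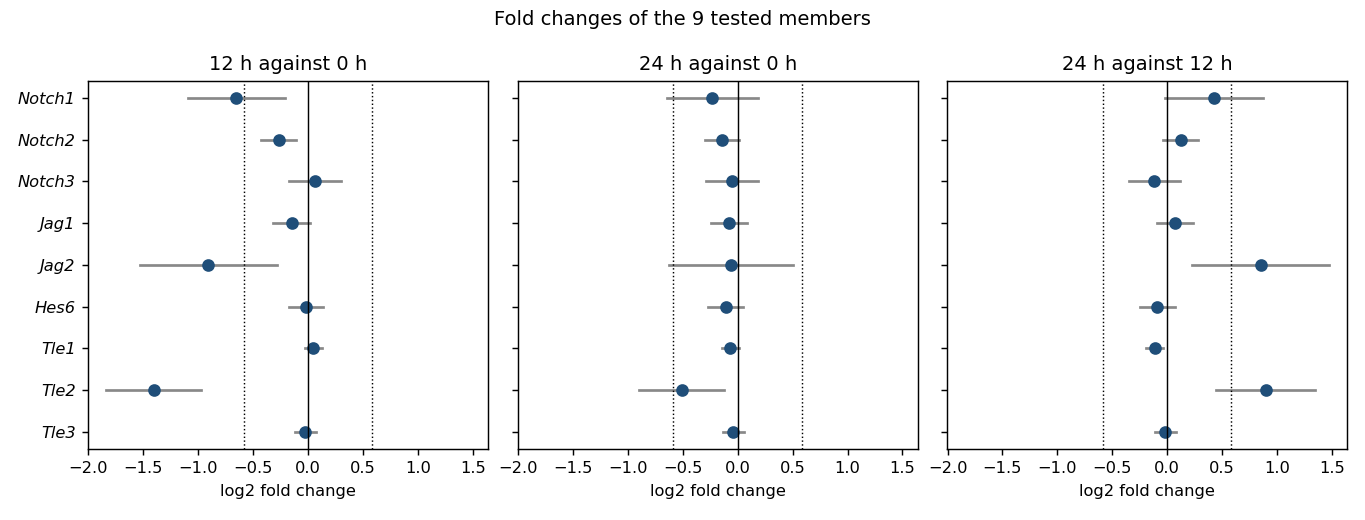
Log2 fold changes of the 9 tested genes with 95% intervals as lines and the 1.5-fold threshold dotted, at 12 h against 0 h, 24 h against 0 h and 24 h against 12 h. Tle2 (-1.41), Jag2 (-0.91) and Notch1 (-0.65) lie farthest below 0 at 12 h, and Tle2 (0.90) and Jag2 (0.85) farthest above 0 at 24 h against 12 h.

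The receptors differed in level by orders of magnitude and 2 of the 3 were lower at 12 h. Notch1 (chromosome 2, 26457903 to 26516663, minus strand) was at 2.48, 2.24 and 2.00 CPM in the 3 libraries at 0 h, 1.23, 1.35 and 1.70 at 12 h, and 1.51, 1.88 and 2.27 at 24 h. Every 12 h library was below every 0 h library, whereas the 24 h libraries overlapped both groups. The log2 fold change was -0.65 ± 0.21 (SE) at 12 h against 0 h, a called fall, -0.23 ± 0.20 at 24 h against 0 h and 0.42 ± 0.21 at 24 h against 12 h. With 42 to 89 counts per library, this is a thinly covered gene, and leaving out each library in turn kept the 12 h call in 5 of 9 fits. It was lost without 0 h replicate 1 (-0.58), 0 h replicate 2 (-0.65), 12 h replicate 1 (-0.56) and 12 h replicate 2 (-0.62). Of its exonic bases, 9.76% overlap a gene on the opposite strand.

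Notch2 (chromosome 3, 98013527 to 98150361, plus strand) carried most of the receptor RNA of the set. Its levels were 184, 197 and 180 CPM at 0 h, 147, 138 and 181 at 12 h, and 161, 180 and 165 at 24 h. The first 2 libraries at 12 h lay below all others, and the third, the library that stood apart, lay inside the range of 0 h, so that the groups overlapped. At 12 h against 0 h the log2 fold change was -0.27 ± 0.074, which passed the adjusted p of 0.05 but stayed under the 1.5-fold threshold for a call, and it was -0.39 without 12 h replicate 3. The pass was lost in 3 of the 9 fits with 1 library left out, without 0 h replicate 2 (-0.23), 12 h replicate 1 (-0.23) or 12 h replicate 2 (-0.19), and under DESeq2 (-0.27). The later differences were -0.15 ± 0.074 at 24 h against 0 h and 0.12 ± 0.074 at 24 h against 12 h, neither of which passed. The last of these passed without 12 h replicate 3, at 0.25. A gene on the same strand overlaps 5.02% of the exonic bases of Notch2. Notch3 (chromosome 17, 32120820 to 32166852, minus strand) was at 6.34 ± 0.588, 6.66 ± 0.721 and 6.14 ± 0.276 CPM at 0, 12 and 24 h (SD, n = 3), with overlapping groups and log2 differences between -0.12 and 0.062. Per length, Notch2 made up 94.8% ± 0.149 of the RNA of Notch1, Notch2 and Notch3 at 0 h, 93.9% ± 1.13 at 12 h and 94.6% ± 0.255 at 24 h.

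Both Jagged ligands were detected, the abundant one with small differences and the scarce one with larger ones. Jag1 (chromosome 2, 137081456 to 137116644, minus strand) was at 14.4 ± 0.765, 13.0 ± 1.05 and 13.6 ± 0.461 CPM at 0, 12 and 24 h (SD, n = 3), with a log2 difference of -0.15 ± 0.079 at 12 h against 0 h that did not pass. Jag2 (chromosome 12, 112907819 to 112929776, minus strand) was at 1.53, 1.97 and 1.92 CPM at 0 h, 1.42, 0.836 and 0.587 at 12 h, and 1.15, 1.91 and 2.11 at 24 h. The highest 12 h library lay just under the lowest of 0 h, and 12 h replicate 1 was well above the others. The fold change was -0.91 ± 0.29 on the log2 scale at 12 h against 0 h, a called fall, -0.058 ± 0.27 at 24 h against 0 h, and 0.85 ± 0.30 at 24 h against 12 h, which did not pass.

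The Jag2 values rest on 18 to 83 counts per library. Leaving out each library in turn kept its 12 h call in 5 of 9 fits, and lost it without 0 h replicate 2 (-0.84), 0 h replicate 3 (-0.87), 12 h replicate 2 (-0.82) or 12 h replicate 3 (-0.67). Jag1 made up 90.5% ± 1.59 of the RNA of the pair per length at 0 h, 94.1% ± 2.93 at 12 h and 90.5% ± 2.5 at 24 h.

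**Figure D3:**
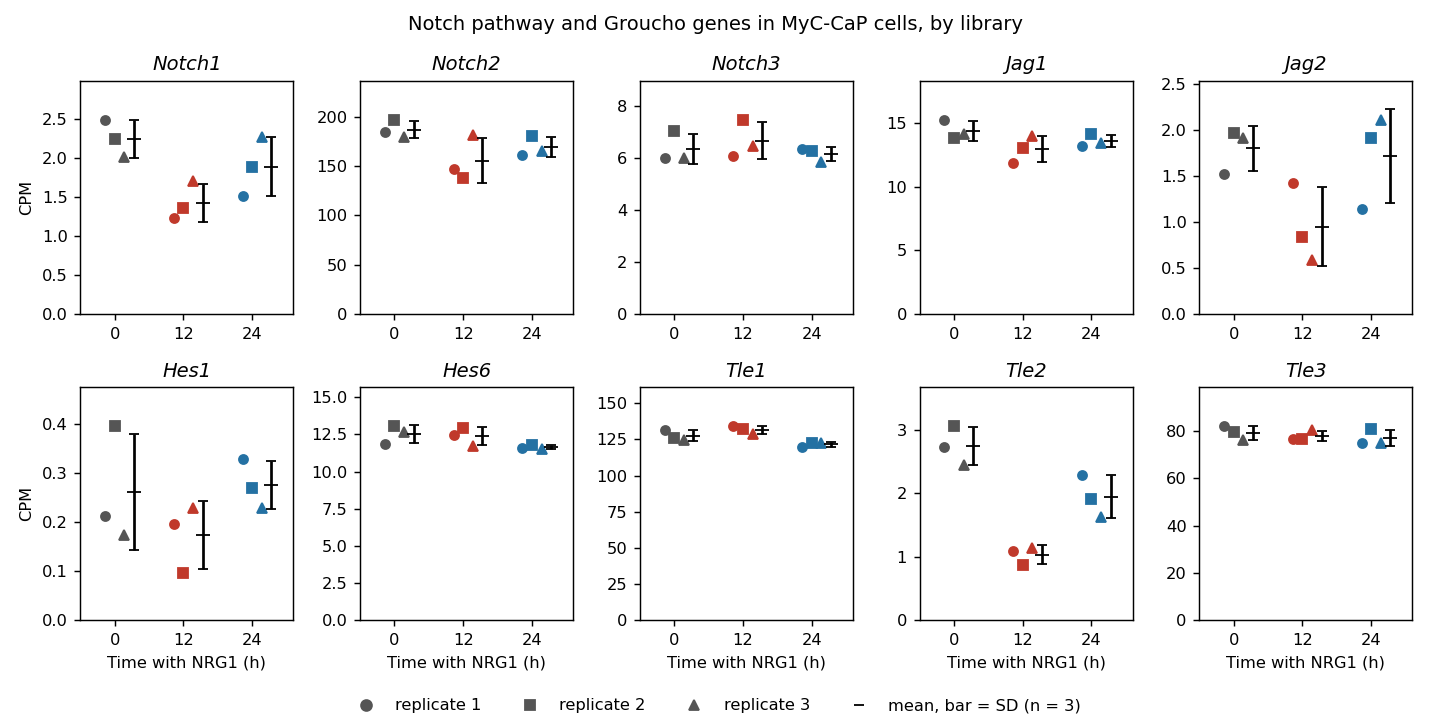
CPM of each of the 10 genes in each of the 9 libraries at 0, 12 and 24 h, 1 panel per gene with its own linear axis from 0, where marker shapes are replicates and bars are the mean and SD (n = 3). For Notch1, Jag2 and Tle2 every 12 h library lies below every 0 h library, and for Notch2, Notch3, Jag1, Hes6, Tle1 and Tle3 the 12 h libraries overlap those at 0 h.

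The HES repressors were given by 1 gene near the floor and 1 well covered gene with no passing difference. Hes1 (chromosome 16, 30064384 to 30067796, plus strand), the classic target of the pathway, had 6, 15 and 6 counts at 0 h, 7, 3 and 7 at 12 h, and 10, 9 and 9 at 24 h. It was 0.261 ± 0.118 CPM at 0 h (SD, n = 3), close to the 3-count floor, and was removed by the filter on low counts, so no test was made. The lowest 24 h library, at 0.229 CPM, lay just above the highest at 12 h, at 0.228 CPM. Hes6 (chromosome 1, 91411483 to 91414038, minus strand), a family member known to counteract Hes1, was at 12.5 ± 0.586, 12.4 ± 0.615 and 11.6 ± 0.129 CPM in the order of time. Its 24 h libraries, at 11.5 to 11.8 CPM, lay below the lowest library at 0 h, 11.9 CPM, and its log2 difference of -0.11 ± 0.075 did not pass.

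Tle2 (chromosome 10, 81574561 to 81590845, plus strand) had the largest difference of the set. Its levels were 2.73, 3.05 and 2.44 CPM at 0 h, 1.09, 0.868 and 1.14 at 12 h, and 2.29, 1.91 and 1.63 at 24 h. The 3 groups did not overlap one another, with 12 h lowest and 24 h between the others. At 12 h Tle2 was at 0.378 of its 0 h level, a called fall with a log2 fold change of -1.41 ± 0.20. It was then higher at 24 h than at 12 h by 0.90 ± 0.21, a called rise, and the 24 h level stood at -0.51 ± 0.18 against 0 h, which did not pass. Tle2 was chosen with this course known, so fits with 1 library left out show how far single libraries move its values and lend the fall no support. The 12 h call was made in 9 of 9 such fits, at -1.49 to -1.30. The 24 h against 12 h call was made in 5 of 9, at 0.77 to 1.02, and lost without 12 h replicate 1 (0.95), 12 h replicate 2 (0.79), 24 h replicate 1 (0.77) or 24 h replicate 2 (0.90). Tle2 had 27 to 116 counts per library.

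Its 2 abundant paralogs in the set did not share this course. Tle1 (chromosome 4, 72117142 to 72200919, minus strand) was at 132, 126 and 125 CPM at 0 h, 134, 132 and 128 at 12 h, and 119.5, 122 and 123 at 24 h, so that 24 h lay slightly below both earlier groups. Its log2 differences were 0.046 ± 0.037 at 12 h against 0 h (95% interval -0.032 to 0.12), -0.069 ± 0.037 at 24 h against 0 h and -0.11 ± 0.037 at 24 h against 12 h (95% interval -0.19 to -0.037), and none passed after adjustment over all genes tested. Tle3 (chromosome 9, 61372366 to 61418497, plus strand) was at 82.0, 79.7 and 76.1 CPM at 0 h, 76.7, 76.6 and 80.3 at 12 h, and 74.8, 81.1 and 75.1 at 24 h. The groups overlapped throughout, and at 12 h against 0 h the log2 difference was -0.025 ± 0.045 with a 95% interval from -0.12 to 0.069.

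Set against the sum of Tle1 and Tle3 in the same library, Tle2 had log2 ratios of CPM of -6.24 ± 0.151, -7.67 ± 0.208 and -6.69 ± 0.261 at 0, 12 and 24 h (SD, n = 3). The ratio differed by -1.43 between 12 and 0 h and by 0.99 between 24 and 12 h, close to the fold changes of Tle2 by itself. The denominator was nearly level, at 207, 209 and 198 CPM in the order of time. Per length, Tle2 supplied 2.01% ± 0.213 of the RNA of the 3 genes at 0 h, 0.757% ± 0.106 at 12 h and 1.5% ± 0.272 at 24 h. Tle2 was thus the scarce paralog at every time point, and the ratio of Tle1 to Tle3 in CPM was 1.51 to 1.75 over the libraries, with means of 1.61, 1.69 and 1.58 in the order of time. In RNA from a whole culture, fewer cells expressing Tle2 and less Tle2 RNA per cell cannot be told apart.

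**Figure D4:**
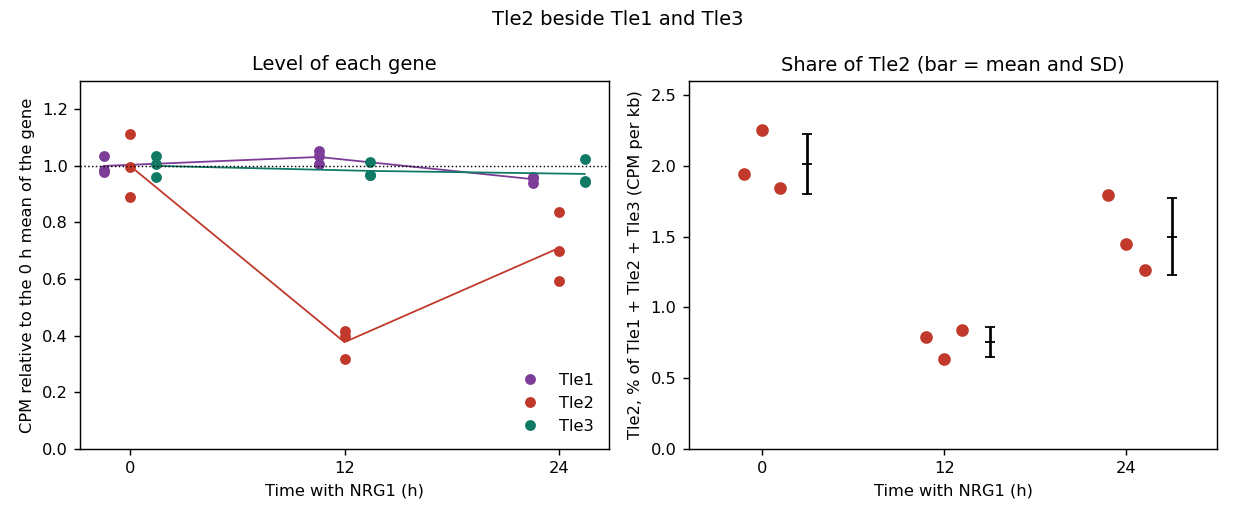
Left, CPM of Tle1, Tle2 and Tle3 in each library divided by the 0 h mean of the gene, with lines through the group means, and right, share of Tle2 in the summed CPM per kilobase of the 3 genes, in percent, with the mean and SD (n = 3). The left panel shows Tle2 at 0.378 of its 0 h level at 12 h while both paralogs stay near 1, and the share is 1.85 to 2.25% at 0 h, 0.638 to 0.841% at 12 h and 1.26 to 1.80% at 24 h, and the 3 groups do not overlap.

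Tle2 lies between 2 other Groucho genes on chromosome 10, Tle5 at 81559488 to 81566362 on the plus strand and Tle6 at 81590904 to 81601073 on the minus strand. They are 8198 and 58 bases away from Tle2, with no other protein-coding gene of the table between. Other kinds of gene were not examined there. Neither neighbour was lower at 12 h. Tle6, a divergent family member, was at 2.64 ± 0.501, 3.16 ± 0.346 and 3.65 ± 0.258 CPM at 0, 12 and 24 h, and its log2 differences of 0.25, 0.45 and 0.20 in the 3 comparisons did not pass (edgeR adjusted p = 0.285, 0.0604 and 0.510). Tle5 was at 288 ± 10.7 CPM at 0 h and its log2 fold change at 24 h was 0.11 ± 0.038 (edgeR adjusted p = 0.0496), a pass seen in 3 of 9 fits with 1 library left out. Tle4, a full-length corepressor like Tle1 and Tle3, had log2 differences of -0.15, -0.057 and 0.089 that did not pass (edgeR adjusted p = 0.121, 0.616 and 0.494). Of the bases in Tle2 exons, 1.58% overlap a gene on the opposite strand.

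Likeness to Tle2 was ranked among 8411 tested genes with a mean of at least 10 CPM and no predicted or clone name. Tle2 itself, with a mean of 1.91 CPM, lies below that limit, so genes at its own level were not ranked. The closest of the 8411 over the 9 libraries was Zfp53, with a Pearson r of log2 CPM of 0.981. It was followed by Hipk3 (0.958), Adcy6 (0.954), Nbeal2 (0.951) and Zc3hav1l (0.950). The 9 points share their time points and libraries, so these coefficients describe likeness of course and carry no test. In size the genes were unlike Tle2, with log2 fold changes at 12 h of -0.19, -0.16, -0.25, -0.37 and -0.32 against the -1.41 of Tle2.

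The rest of the pathway was read from a list of 59 genes in 11 roles, of which 54 were in the table and 44 were tested. At 12 h against 0 h, 29.5% of the 44 passed, beside 25.5% of all genes. Of the 44, 5 passed as higher and 8 as lower, beside 13.6% and 11.9% of all genes, and 0 were called, beside 2.29%. At 24 h against 0 h, 25% passed, beside 17.4%. Of the 44, 4 passed as higher and 7 as lower, beside 9.67% and 7.76% of all genes, and 1 was called, beside 2.27%. At 24 h against 12 h, 2.27% passed, beside 5.03%. Here 0 of the 44 passed as higher and 1 as lower, beside 1.97% and 3.06% of all genes, and 0 were called, beside 0.290%. The median log2 differences were -0.066, -0.035 and 0.026.

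The called gene was Nrarp, itself a target of the pathway whose protein restrains the RBPJ complex. Nrarp had 11, 13 and 12 counts at 0 h, 17, 17 and 22 at 12 h, and 25, 28 and 33 at 24 h. It rose at 24 h against 0 h by 1.21 ± 0.31 on the log2 scale (edgeR adjusted p = 0.0110), with all groups apart from one another, and the call was made in 9 of 9 fits with 1 library left out. At 12 h the difference was 0.68 (edgeR adjusted p = 0.146). A gene on the opposite strand overlaps 79.4% of the Nrarp exonic bases, and whether the counting used strand was not given in the sources used here, so these counts cannot be assigned to Nrarp alone.

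Among the proteases that cut the receptor, Psen2 is a catalytic subunit of gamma-secretase. It was at 15.0 ± 1.45 CPM at 0 h, 10.02 ± 0.924 CPM at 12 h and 10.2 ± 0.276 CPM at 24 h. Its log2 fold changes of -0.57 ± 0.090 (edgeR adjusted p = 0.000191) and -0.55 ± 0.089 (edgeR adjusted p = 0.000371) were just under the threshold of a call, which was crossed in 3 of 9 fits at 12 h and 1 of 9 at 24 h with 1 library left out. Nicastrin (Ncstn), the substrate-binding subunit, fell at 24 h by 0.21 on the log2 scale (edgeR adjusted p = 0.00145). The other 5 subunit genes did not pass at either time. Adam10, the protease of the first cut in ligand-dependent signaling, fell at 24 h, by 0.18 on the log2 scale (edgeR adjusted p = 0.00276), and Adam17 was higher at 12 h than at 0 h by 0.11 (edgeR adjusted p = 0.0289) and lower at 24 h than at 12 h, at -0.14 (edgeR adjusted p = 0.0314).

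Of the 7 tested genes for trafficking and turnover of the receptor, 1 passed as higher and 3 as lower at 12 h against 0 h, beside 13.6% and 11.9% of all genes, and 0 and 3 at 24 h against 0 h, beside 9.67% and 7.76%. Among them Dtx4, an E3 ligase of the Deltex family, fell by 0.35 on the log2 scale at 12 h (edgeR adjusted p = 4.57e-06). Dtx4 stood at -0.27 at 24 h (edgeR adjusted p = 4.89e-05), and its relative Dtx3 stood at -0.40 and -0.24 (edgeR adjusted p = 0.000203 and 0.0150). Fbxw7 stood at -0.33 and -0.30 (edgeR adjusted p = 0.000249 and 0.000726). The higher gene was Numbl, by 0.26 at 12 h (edgeR adjusted p = 0.00723). Mib1, which ubiquitinates the ligands, fell at 12 h with -0.15 (edgeR adjusted p = 0.0419), as did the coactivator Maml2 with -0.25 (edgeR adjusted p = 0.0438). Within the same RBPJ complex, Rbpj itself was higher at 12 h, by 0.18 (edgeR adjusted p = 0.0118). Maml3 was lower at 12 and 24 h, at -0.22 and -0.19 (edgeR adjusted p = 0.00571 and 0.0176). The receptor Notch4, at 327 ± 24.4 CPM at 0 h, rose by 0.22 on the log2 scale at 24 h (edgeR adjusted p = 0.00261). Of the factors that bring Groucho proteins to DNA, Runx1 was higher at both times, by 0.30 and 0.18 (edgeR adjusted p = 0.000142 and 0.0119). At 12 h Runx3 was higher by 0.15 (edgeR adjusted p = 0.00688), and Tcf7l1 was lower, at -0.20 (edgeR adjusted p = 0.0219). These passing differences were all less than 1.5-fold except that of Nrarp. With 1 library left out, the passes of Dtx4 at both times, of Dtx3 and Runx1 at 12 h, and of Notch4, Ncstn and Adam10 at 24 h were kept in 9 of 9 fits. Those of Mib1, Adam17 and Tcf7l1 at 12 h were kept in 5 of 9, and those of Maml2 at 12 h and Adam17 at 24 h against 12 h in 3 of 9.

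**Figure D5:**
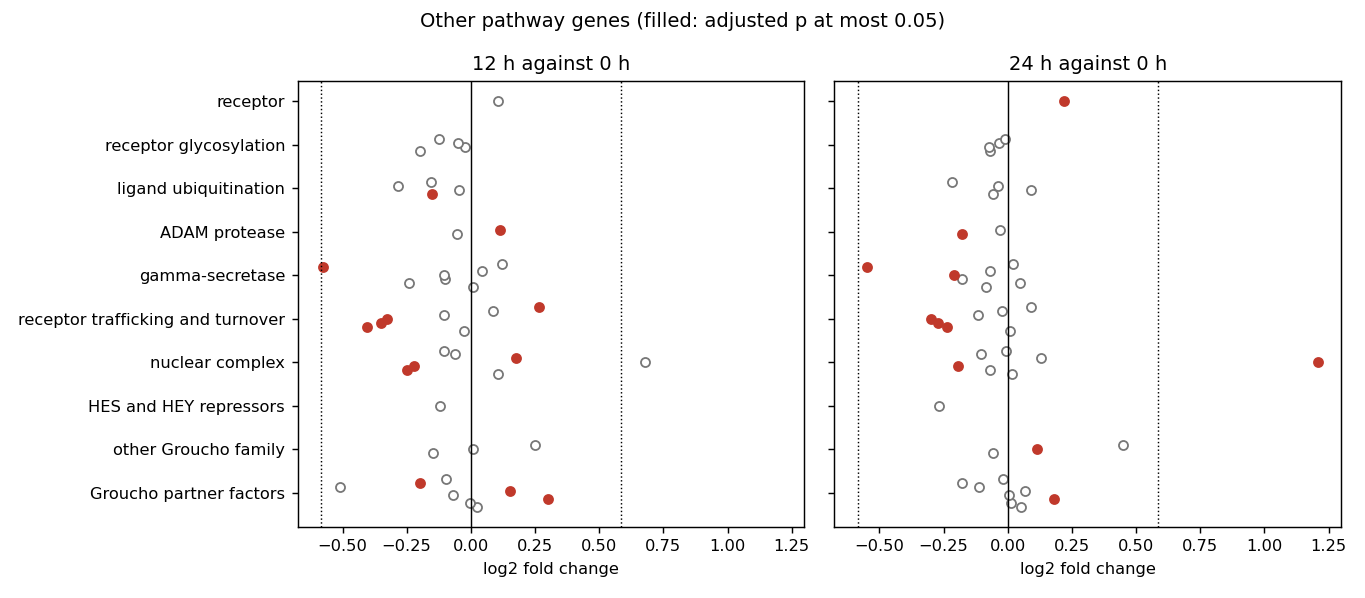
Log2 fold changes against 0 h of the 44 tested pathway genes outside the set, 1 point per gene and 1 row per role, at 12 and 24 h, with those at an adjusted p of at most 0.05 filled and the 1.5-fold threshold dotted. Nrarp at 24 h (1.21) is the farthest from 0, followed on the lower side by Psen2 (-0.57 at 12 h and -0.55 at 24 h).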

How the data were processed

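RNA of 9 libraries was sequenced as paired-end reads. The authors trimmed reads with Cutadapt, aligned them to GRCm38.p6 with STAR under GENCODE vM24, and used featureCounts to count them by gene. The deposited values are raw counts with no normalization, and the use of strand and the treatment of reads matching several genes are not given in the sources used here. Groups follow the time in the labels.

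The count table was filtered with filterByExpr, scaled by TMM and fitted over all 9 libraries in edgeR 4.0.16 (R 4.3.3) with the quasi-likelihood test. Passing means a Benjamini-Hochberg adjusted p of at most 0.05 over the 11373 genes tested, and a call also needs a fold change of at least 1.5. CPM use TMM-scaled library sizes, and log2 CPM a prior count of 2.

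Members and gene lists were chosen with earlier results of these data known. Named were all members, called genes of the pathway list, up to 2 passing genes per role with the largest change, and the other TLE genes. Rbpj and Maml3 were added as the other passing genes of the RBPJ complex. Fbxw7 and Numbl were added as those of trafficking and turnover, and Runx3 as that of the Groucho partner factors. Also named were the 5 genes most like Tle2 among those of at least 10 CPM without a predicted or clone name. Exon lengths and overlaps come from GENCODE vM21, whose gene spans matched for all listed genes except Tcf7. Alternatives were DESeq2 1.42.0, total counts, no filter, 2 groups per fit, a replicate block and leaving out each library. P-values measure the spread between these cultures of 1 line. Replicate numbers served as names, since the sources used here name no pairing of the cultures. Deviations from the group mean had r of -0.074 to 0.13 between same-numbered libraries of different time points. For other-numbered libraries r was -0.13 to 0.12, and these values cannot decide whether the cultures were paired. The level of 1 luminal marker is not reported here.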

Additional observations from a re-analysis of the deposited data

How the results depend on the processing

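No passing log2 fold change of the 9 tested genes changed sign under the alternatives run. With 1 library left out, differences that did not pass changed sign for Notch3 and Hes6 at 12 h against 0 h, Notch3 and Jag2 at 24 h against 0 h and Tle3 at 24 h against 12 h, to values between -0.028 and 0.15. With all genes kept, 53 genes were called at 24 h against 12 h in place of 33, 1 gene of the set passed as lower at 24 h against 0 h, 2 passed and were called as higher at 24 h against 12 h, and 1 pathway gene passed as higher there. With 2 groups per fit, 1 gene of the set passed as lower at 24 h against 0 h. Under total counts, 1 pathway gene was called lower at 12 h (Psen2) and 0 passed as lower at 24 h against 12 h, where DESeq2 gave 2. With 1 added to CPM, the Tle2 ratio differed by -0.90 at 12 h against 0 h and by 0.61 at 24 h against 12 h, since Tle2 is near 1 CPM. The cause of the other shifts was not tested.

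Leaving out 1 library gave 1 to 4 genes of the set passing as lower at 12 h and 1 to 3 called, 0 to 1 passing as lower at 24 h against 0 h and at 24 h against 12 h, and, as higher at 24 h against 12 h, 0 to 2 passing and 0 to 1 called. In the pathway list it gave 5 to 8 passing as lower and 0 to 1 called lower at 12 h, 2 to 6 passing as higher and 0 to 1 called lower at 24 h against 0 h, and, at 24 h against 12 h, 0 to 2 passing as higher and 0 to 1 as lower. The genes called at 24 h against 12 h numbered 15 to 38, with 15 without 24 h replicate 1 and 21 without 24 h replicate 2. A replicate block gave 268, 259 and 33 calls in the 3 comparisons against 261, 258 and 33 without it, and changed no call of the set. Whether the numbers pair the cultures is not known, and 4 of 9 libraries were closest to a library of their own number, which cannot decide it. Depth limits Hes1, Jag2, Notch1, Tle2 and Nrarp, which had at most 116 counts in any library.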
